A study of Mus musculus with 2 samples.

Results

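The TRIM genes encode a large family of tripartite-motif proteins, most of which are ubiquitin ligases. They were followed here in a line of mouse liver tumour cells, LPC-HRas, that carried a short hairpin RNA against Etv4. The genes were chosen by symbol: Trim, a number and at most 1 letter from a to d, with Trim25 and Trim28 left to other gene groups. This gave 66 genes among 55487 named records. The shRFP library came from LPC-HRas cells infected with lentivirus carrying a control hairpin against red fluorescent protein, and the shETV4 library from the same line infected with lentivirus carrying a hairpin against Etv4. Both libraries were made from total RNA. How many hairpins, clones or cultures stand behind each library was not given in the sources used here.

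A TRIM protein carries a RING finger, 1 or 2 B-box zinc fingers and a coiled coil at its amino-terminal end, and a variable carboxy-terminal domain that picks its target. The RING finger passes ubiquitin from a conjugating enzyme to the target, although some members, such as Trim14, Trim16, Trim44 and Trim66, lack it. Several members with a carboxy-terminal PRY-SPRY domain bind viral components or steer the sensing of viral nucleic acids, and many of their genes are induced by interferon through response elements in their promoters. Others act in transcription, the cytoskeleton, muscle, neurons or the endoplasmic reticulum.

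With 1 library per group no difference was tested and none has a replicate check. Levels are in TPM, a unit that corrects for transcript length and sums to a fixed total per library, so sequencing depth and counting error are unknown. A gene counted as measured when it had 1 TPM or more in either library. A difference is the log2(TPM + 1) value with shETV4 less the one with shRFP, a scale on which low genes appear to differ less than their ratio, and a call needed a 2-fold difference on it. Folds given beside TPM are plain ratios. Etv4, the targeted ETS-family transcription factor, had 73.2 TPM in the shRFP library and 16.2 TPM in the shETV4 library. The tumour line is labelled as hepatocellular carcinoma, yet all 8 hepatocyte markers examined were below 1 TPM in both libraries and Alb, the albumin gene, was listed at 0, whereas 3 of the 5 biliary and progenitor markers, Sox9, Krt19 and Spp1, were at 28.0, 27.5 and 423 TPM with shRFP. The other 2 of these 5 were below 1 TPM in both libraries, Epcam at 0.16 and 0.23 TPM and Krt7 at 0.06 and 0.04 TPM.

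The promoters are shown first, because most measured antiviral members with a promoter window share a sequence. The family was chosen by symbol, but the antiviral list was drawn up in part from genes known to be induced by interferon. The sequence is therefore not independent of that list. Stretches are from the RefSeq promoter table (build GRCm38.p6), which held 51 of the 66 genes, in windows from 250 bases before to 50 bases after each annotated start. They are printed 5′ to 3′ on the gene's own strand, with matches to the core of the interferon-stimulated response element in capitals. The core was searched on both strands as GAAA, any 2 bases and GAAA again, and most of these genes hold it as its reverse complement. The whole windows are given for Trim21 (chr7:102565433-102565732, minus strand), Trim34a (chr7:104244207-104244506, plus strand) and Trim30a (chr7:104465144-104465443, minus strand), the antiviral members for which the comparison was set up.
Trim21: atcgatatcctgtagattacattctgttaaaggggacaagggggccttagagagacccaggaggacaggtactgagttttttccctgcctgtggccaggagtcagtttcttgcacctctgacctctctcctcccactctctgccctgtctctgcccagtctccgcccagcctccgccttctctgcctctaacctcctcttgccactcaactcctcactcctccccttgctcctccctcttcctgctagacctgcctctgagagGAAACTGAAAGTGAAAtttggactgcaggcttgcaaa
Trim34a: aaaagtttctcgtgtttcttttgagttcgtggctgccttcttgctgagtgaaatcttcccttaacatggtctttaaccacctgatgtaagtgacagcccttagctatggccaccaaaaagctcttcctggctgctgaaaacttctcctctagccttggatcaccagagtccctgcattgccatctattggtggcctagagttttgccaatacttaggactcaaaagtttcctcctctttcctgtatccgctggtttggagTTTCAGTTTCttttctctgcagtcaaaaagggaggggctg
Trim30a: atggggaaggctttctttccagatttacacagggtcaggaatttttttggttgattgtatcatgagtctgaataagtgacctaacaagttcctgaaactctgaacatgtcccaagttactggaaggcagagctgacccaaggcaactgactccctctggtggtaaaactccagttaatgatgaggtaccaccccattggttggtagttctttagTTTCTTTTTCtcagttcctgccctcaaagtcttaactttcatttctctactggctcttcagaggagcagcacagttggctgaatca

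Stretches of 110 bases are enough for the other members that the results turn on. Trim30d (chr7:104507800-104507909, minus strand), Trim12a (chr7:104315446-104315555, minus strand) and Trim12c (chr7:104353300-104353409, minus strand) hold the element near their start, and Trim26 (chr17:36836946-36837055, plus strand) holds it farther upstream. Trim30c (chr7:104400829-104400938, minus strand) is shown because the stretch that aligns with the Trim30a element, in capitals, is not a match. Trim59 (chr3:69044693-69044802, minus strand), the member with the lowest difference, holds no match and has a window with a GC content of 76.7%.
Trim30d: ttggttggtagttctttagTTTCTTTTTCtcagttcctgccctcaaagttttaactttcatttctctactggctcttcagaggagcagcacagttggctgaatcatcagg
Trim30c: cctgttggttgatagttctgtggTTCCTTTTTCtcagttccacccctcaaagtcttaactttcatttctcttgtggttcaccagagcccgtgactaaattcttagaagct
Trim12a: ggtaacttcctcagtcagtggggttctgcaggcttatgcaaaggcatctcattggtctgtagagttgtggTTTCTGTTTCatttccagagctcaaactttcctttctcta
Trim12c: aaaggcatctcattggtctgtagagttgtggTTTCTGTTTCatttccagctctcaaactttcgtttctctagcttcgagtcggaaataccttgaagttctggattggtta
Trim26: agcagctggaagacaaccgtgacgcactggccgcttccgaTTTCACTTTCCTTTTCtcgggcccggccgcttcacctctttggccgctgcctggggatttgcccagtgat
Trim59: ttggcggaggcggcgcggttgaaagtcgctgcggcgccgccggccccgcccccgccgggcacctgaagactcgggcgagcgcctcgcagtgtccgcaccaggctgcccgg

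The upward calls in the family were all of members on an antiviral list that was chosen with earlier results of these data known, so the split is not independent of them. Of 35 measured TRIM genes, with shETV4 5 were called higher, 3 were called lower and 27 lay within 2-fold. Among all 12968 measured genes, 3.39% were called higher and 7.06% lower, or 439 and 916 genes. With the trimmed mean of log ratios set to 0 these became 542 and 666 of 13039 genes, or 4.16% and 5.11%. On that scale 5 members were called higher and 2 lower. The 3 lower calls are 8.57% of the measured members, near the share over all genes, and none of the 3 remained past 2-fold after the adjustment for GC content described below. All 5 higher genes (Trim21, Trim34a, Trim14, Trim30d and Trim30c) were on the list of 15 antiviral TRIM genes, and all 3 lower genes (Trim59, Trim23 and Trim33) were outside it. Of the 5, Trim30c reached 1 TPM with shETV4 alone, and Trim14 is not on a narrow list of Trim21 and its relatives in a chromosome 7 cluster. Summed over the family the level hardly differed, at 692 TPM in the shRFP library and 693 TPM in the shETV4 library. The antiviral members went from 72.4 to 124 TPM, or from 10.5% to 17.8% of the family's sum, and the other members from 620 to 569 TPM. A 3-fold call left 1 member higher, Trim21, and none lower, where 1.25% of all genes were called in each direction. A 1.5-fold call gave 7 higher, all antiviral, beside 8.61% of all genes, and 6 lower, all outside the list, beside 20%.

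**Figure D1:**
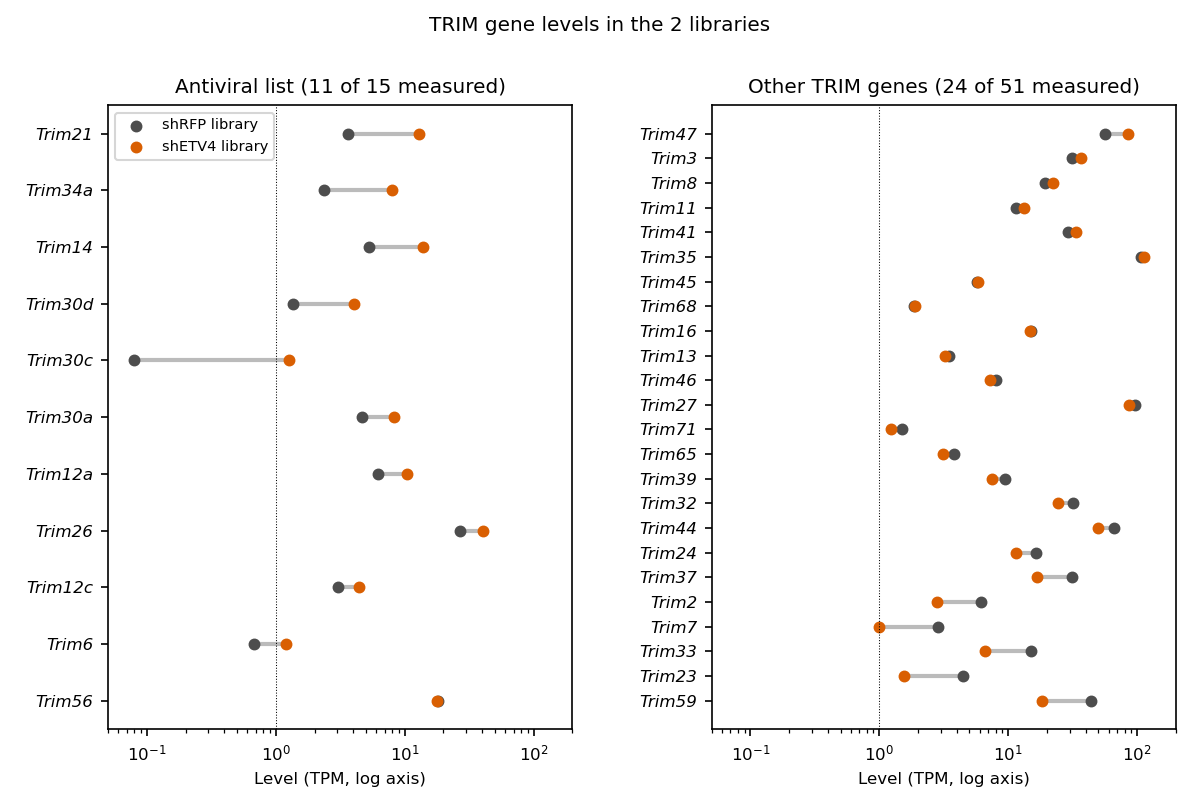
Level of each measured TRIM gene in the shRFP library (grey) and the shETV4 library (orange), in TPM on a log axis, 1 library per group, with the antiviral list on the left and the other genes on the right; the dotted line marks 1 TPM. On the left 10 of 11 genes lie higher with shETV4, among them Trim30c and Trim6, which reach 1 TPM there alone, and on the right the longest bars, those of Trim59, Trim23, Trim33, Trim7 and Trim2, run the other way. Trim7 reaches 1 TPM with shRFP alone.

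The antiviral list is a selection of members described as restricting viruses or as induced by interferon, and which members to count as antiviral was a choice. Of its 15 genes 11 were measured, 5 were called higher, none lower, and 10 lay above 0, at a median difference of 0.71. On a wide list of 25 genes 18 were measured, with the same 5 called higher and none lower. Of these 18, 13 lay above 0 and 5 below, at a median of 0.42. Trim30c and Trim6 passed the filter only through the shETV4 library, so the filter fixed their direction. With the filter set instead on the mean of both libraries, a choice made after the values were seen, 4 of 9 antiviral genes were called higher, 8 lay above 0 and the median was again 0.71, beside 2.97% of all 12475 genes called higher and 6.78% lower. The 24 measured genes of the other 51 had none called higher, 3 called lower, 8 above 0 and a median of -0.16, near the median of -0.10 over all measured genes. Among those below 0, Trim7 passed the filter only through the shRFP library, which fixed its direction. The medians of the groups were 0.87 apart. Trim21, which encodes a cytosolic antibody receptor that marks antibody-coated virus for destruction, was at 3.61 TPM in the shRFP library and 12.99 TPM in the shETV4 library. It was 3.60-fold higher with shETV4, a difference of 1.60, and ranked 159 from the top among all measured genes. Trim21 (ENSMUSG00000030966) occupies chromosome 7 from 102557921 to 102565486 (minus strand, GRCm38), and no other gene overlaps its exons.

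Trim34a, a close relative of the capsid-binding restriction factor Trim5, was at 2.35 TPM in the shRFP library and 8.01 TPM in the shETV4 library. That is 3.41-fold higher, a difference of 1.43. Trim34a (ENSMUSG00000056144, chromosome 7, 104244457 to 104262234, plus strand) shares 59.7% of the 50-base words of its transcripts with other genes, mainly its copy Trim34b, and 23.5% of its exonic bases with an antisense gene, Gm47248, which was at 0.85 and 0.10 TPM. Trim34b itself was listed at 0 with shRFP and at 0.25 TPM with shETV4, and how reads were shared out between these copies is uncertain.

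Trim14, an adaptor without a RING finger that acts in the sensing of viral RNA and DNA, was at 5.33 and 13.99 TPM, 2.62-fold higher with shETV4. It is the only called member of the list outside chromosome 7. Trim14 (ENSMUSG00000039853) occupies chromosome 4 from 46493781 to 46536141 (minus strand), and 38.0% of its exonic sequence overlaps exons of other genes, chiefly Nans on the opposite strand. Nans, a sialic acid synthase gene, was at 99.2 and 112 TPM, a difference of 0.17. Reads of Trim14 and Nans cannot be told apart in that overlap if the counting ignored strand, a setting not stated in the sources used here.

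The Trim30 genes are a mouse group of close copies. Trim30a, whose protein dampens NF-kB signalling by removing the adaptors Tab2 and Tab3, was at 4.65 TPM in the shRFP library and 8.25 TPM in the shETV4 library. At 1.77-fold it lay within 2-fold on the log2(TPM + 1) scale, with a difference of 0.71. Trim30d was at 1.35 and 4.07 TPM, 3.01-fold higher with shETV4. Trim30c was at 0.08 and 1.27 TPM. Trim30b was listed at 0 with shRFP and was at 0.07 TPM with shETV4. All 4 copies thus had their higher value with shETV4, Trim30b and Trim30c at very low levels. Trim30d shares 7.49% of its 50-base words with other genes, Trim30a 5.98% and Trim30c 0.66%.

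Trim12a and Trim12c are mouse counterparts of the primate restriction factor TRIM5. Trim12a was at 6.22 TPM in the shRFP library and 10.51 TPM in the shETV4 library, and Trim12c at 3.03 and 4.45 TPM. Both were higher with shETV4 but within 2-fold, at differences of 0.67 and 0.44. Mouse Trim5 was at 0.05 and 0.24 TPM, below the level at which a gene was measured. Trim12c shares 33.7% of its 50-base words with other genes, mainly Trim5 and Trim12a, and Trim12a 10.5%.

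The remaining members of the list differed less. Trim26, a ligase gene of the major histocompatibility region, was the most abundant of the list at 26.92 and 40.62 TPM, 1.51-fold higher with shETV4. Trim6, whose product makes free ubiquitin chains that activate the kinase Ikbke, was at 0.68 and 1.21 TPM, at the edge of the filter. Trim56, a ligase that supports signalling through Sting1, was at 18.10 and 17.69 TPM and was the only measured member of the list below 0, at -0.03. It came above 0 when the libraries were set to a common median ratio or to a common trimmed mean of log ratios. Trim38 was listed at 0 and at 0.05 TPM. In all, 14 of the 15 antiviral members had the higher value with shETV4, but 4 of the 15 were below 1 TPM in both libraries. Of the 11 measured ones 10 had it, beside 5395 of the 12968 measured genes. Of the 14, Trim34b, Trim30b and Trim38 were listed at 0 with shRFP and could not lie lower with shETV4. Trim5, Trim30c and Trim6 were below 1 TPM with shRFP.

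Most of the antiviral genes lie together. The 10 genes of the Trim6, Trim34, Trim5, Trim12 and Trim30 groups fill 289 kb of chromosome 7 (104218793 to 104507849, GRCm38). Of its 7 measured genes Trim30c and Trim6 had their direction fixed by the filter. The other 5 lay above 0 at a median difference of 0.71, and 2 of them were called higher, Trim34a and Trim30d. Trim21 lies 1653 kb away on the same chromosome, beside Trim68, a member outside the list that was at 1.84 and 1.88 TPM. Of the 5 members on chromosome 7 outside the cluster 3 were measured, and apart from Trim21 these were Trim68 and Trim3, the latter at 31.43 and 36.56 TPM.

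Leukocytes are rich in several of these transcripts, so leukocyte markers were read beside them. Of 9 markers 2 were measured, Cd14 at 8.68 and 15.2 TPM and Cd68 at 1.01 and 1.98 TPM. Csf1r, below 1 TPM in both libraries, had its lower value with shETV4, at 0.78 and 0.30 TPM. The sum of all 9 came to 10.5 TPM in the shRFP library and 17.7 TPM in the other. Ptprc, the general leukocyte marker, was listed at 0 and at 0.03 TPM, and Cd3e, Cd79a and Adgre1 were listed at 0 in both libraries. In bulk RNA a difference in the number of expressing cells and a difference in RNA per cell cannot be told apart.

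Base composition moved with the differences of the TRIM genes outside the antiviral list. GC content here is the median over a gene's transcripts. Across all 12947 measured genes with a value, GC content and difference had a rank correlation of 0.52, and across the 24 measured TRIM genes outside the antiviral list it was 0.76. Across all 35 measured TRIM genes it was 0.06. Genes of 1 pair of libraries are not independent replicates. The antiviral members had a median GC content of 45.4% and the others 52.5%. When the running median over GC content was subtracted, 8 of the 11 antiviral genes were past 2-fold upward, against 3.98% of all genes. Trim30a (1.36), Trim12c (1.09) and Trim12a (1.05) joined the 5 genes already called, of which Trim30c had its direction fixed by the filter. With the filter on the mean of both libraries 7 of 9 antiviral genes were past it. None of the other 24 was then past 2-fold in either direction, against 2.3% of all genes past it downward. The medians became 1.20 for the antiviral list and -0.19 for the others.

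**Figure D2:**
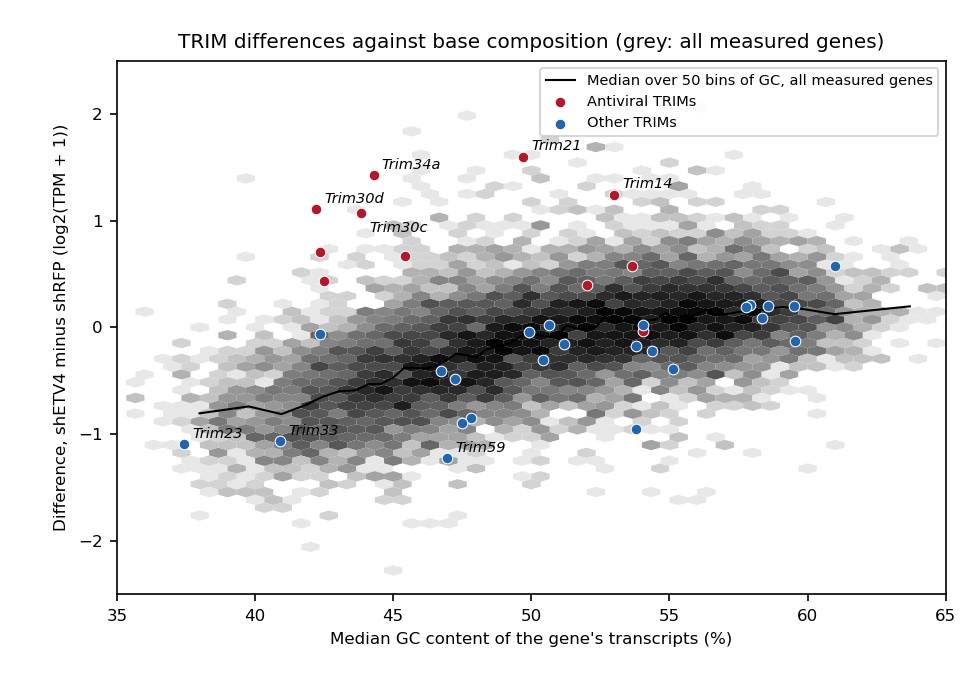
Difference between the libraries (shETV4 minus shRFP, log2(TPM + 1)) against the median GC content of each gene's transcripts in percent, for antiviral TRIM genes (red), other TRIM genes (blue) and all measured genes (grey density; genes beyond the axes are not drawn), with the median over 50 bins of GC content as a black line. Trim34a, Trim30d and Trim30c lie far above the line at a GC content of 42.2% to 44.3%, while Trim23 and Trim33 lie near it.

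**Figure D3:**
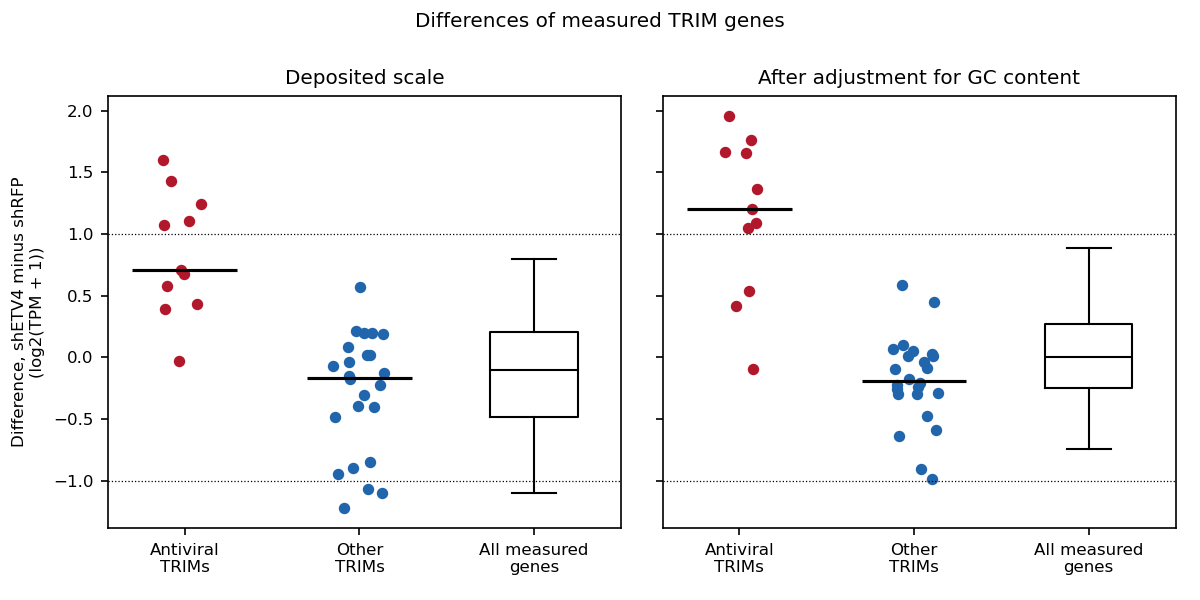
Differences of the measured antiviral TRIM genes (red, 11) and other TRIM genes (blue, 24) as points with their medians as bars, beside a box of all measured genes (quartiles, whiskers at the percentiles 5 and 95), on the deposited scale and after adjustment for GC content; dotted lines mark 2-fold. The antiviral median moves from 0.71 to 1.20 with the adjustment and the other median from -0.16 to -0.19.

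Among the genes outside the antiviral list the lowest difference was that of Trim59, which encodes a membrane-anchored ligase of the endoplasmic reticulum studied in tumours. It was at 43.94 TPM in the shRFP library and 18.25 TPM in the shETV4 library, 2.41-fold lower, a difference of -1.22. After adjustment for GC content the difference was -0.91, inside 2-fold. Trim59 (ENSMUSG00000034317) occupies chromosome 3 from 69035288 to 69044755 (minus strand). Trim23, whose protein carries an ARF-type GTPase domain, was at 4.47 and 1.56 TPM, 2.87-fold lower with shETV4. Trim33, a chromatin reader also known as TIF1-gamma that acts on Smad4, was at 15.03 and 6.65 TPM, 2.26-fold lower. Trim23 and Trim33 have a GC content of 37.4% and 40.9%, and after the adjustment they were at -0.29 and -0.25. Trim33 was also inside 2-fold, at -0.96, on the trimmed-mean scale.

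A further group of members lay just inside the call. Trim7, a ligase known to bind glycogenin, was at 2.84 and 0.99 TPM, a difference of -0.95. It reached 1 TPM in the shRFP library alone, so the filter fixed its direction. With its GC content of 53.8% it was at -0.99 after the adjustment, the lowest adjusted difference of the measured TRIM genes. Trim2, an NHL-repeat ligase of neurons, was at 6.09 and 2.81 TPM (-0.90). Trim37, a MATH-domain ligase that limits centrosome assembly, was at 30.94 and 16.77 TPM (-0.85). Just past the call were Trim33 (-1.07), Trim23 (-1.10), Trim30c (1.07) and Trim30d (1.11).

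The most abundant members lay within 2-fold. Trim35 had the highest level of the family at 106.82 TPM in the shRFP library and 113.46 TPM in the shETV4 library. Trim27, a nuclear ligase first known as a fusion partner of Ret, was at 95.65 and 85.84 TPM. Trim44, which has a ubiquitin-specific protease type zinc finger in place of a RING, was at 66.02 and 49.62 TPM. Trim47 was at 56.50 and 84.57 TPM, 1.5-fold higher, the highest difference outside the antiviral list at 0.57. These 4 genes were the only members at 50 TPM or more with shRFP.

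Sorted by carboxy-terminal domain, all 5 higher genes were of the PRY-SPRY class, and none of the 3 lower ones was. Classes were assigned from general knowledge of the family, without protein sequences. The PRY-SPRY class took every member not placed in another, so the domain itself was not checked in each. Of the 38 genes of this class 20 were measured, at a median difference of 0.42. Within this class the antiviral genes and the rest lay apart. Leaving aside Trim30c and Trim6, whose direction the filter fixed, the list's 8 measured genes of this class lay above 0 with a median of 0.91. The 10 others had 5 on either side of 0, none called, with a median of -0.01. Trim7, kept among these 10 and below 0, also had its direction fixed by the filter, through the shRFP library. Those of the 10 not named so far were Trim11 at 11.47 and 13.32 TPM, Trim41 at 29.14 and 33.35 TPM, Trim16, a galectin-binding member that takes part in autophagy, at 15.10 and 14.65 TPM, Trim65 at 3.81 and 3.13 TPM and Trim39 at 9.46 and 7.47 TPM.

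The 4 NHL-repeat genes were all measured and none was called, at a median of -0.28. Beside Trim2 and Trim3 they were Trim32, mutated in a limb-girdle muscular dystrophy, at 31.91 and 24.11 TPM, and Trim71, a stem cell factor that is a target of let-7 microRNAs, at 1.5 and 1.22 TPM. The measured genes of the PHD and bromodomain class were Trim33 and Trim24, a co-regulator of nuclear receptors, the latter at 16.41 and 11.45 TPM (-0.48). The other gene of the transmembrane class, Trim13, was at 3.45 and 3.25 TPM, in contrast to Trim59. Trim8, which acts in JAK-STAT signalling, was at 19.23 and 22.24 TPM, Trim45 at 5.69 and 5.79 TPM, and Trim46, which bundles microtubules in axons, at 7.97 and 7.22 TPM.

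The other 31 members stayed below 1 TPM in both libraries, with 0.72 TPM as their highest value, and 13 of them were listed at 0 in both. They included all 3 muscle genes of the COS class (Trim54, Trim55 and Trim63), 4 of the 5 genes with COS and FN3 domains (Trim9, Trim36, Trim42 and Trim67), the Trim43 copies Trim43a, Trim43b and Trim43c, and Trim10, Trim15, Trim31 and Trim40 of chromosome 17. The antiviral members among them were Trim5, Trim30b, Trim34b and Trim38. The rest were Trim17, Trim29, Trim50, Trim52, Trim58, Trim60, Trim61, Trim62, Trim66, Trim69, Trim72, Trim75 and Trim80.

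The antiviral genes and the others also differed in their promoter windows. The list was drawn up in part from genes known to be induced by interferon, so the element is not independent of it. The response element core was found in 7 of the 10 measured antiviral genes with a RefSeq window and in 1 of the 17 others, Trim2. It was held by 3.99% of all 27025 genes with a window. The 7 include close copies, such as Trim30a and Trim30d, whose aligned windows were identical at 276 of 295 bases. They are therefore not 7 independent occurrences. The antiviral genes with a match were Trim21, Trim34a, Trim30d, Trim30a, Trim12a, Trim12c and Trim26, and those without were Trim30c, Trim6 and Trim56. The last 2 of these were the measured members of the list nearest to 0 on the log2(TPM + 1) scale, which shrinks the differences of low genes such as Trim6. The plain ratio of Trim6, 1.78, was above those of Trim30a (1.77), Trim12a (1.69), Trim26 (1.51) and Trim12c (1.47), which hold the element. Within the 250 bases before the start alone, 4 of the 10 and none of the 17 held it, because the matches in Trim21, Trim34a, Trim12a and Trim2 lie after the start.

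**Figure D4:**
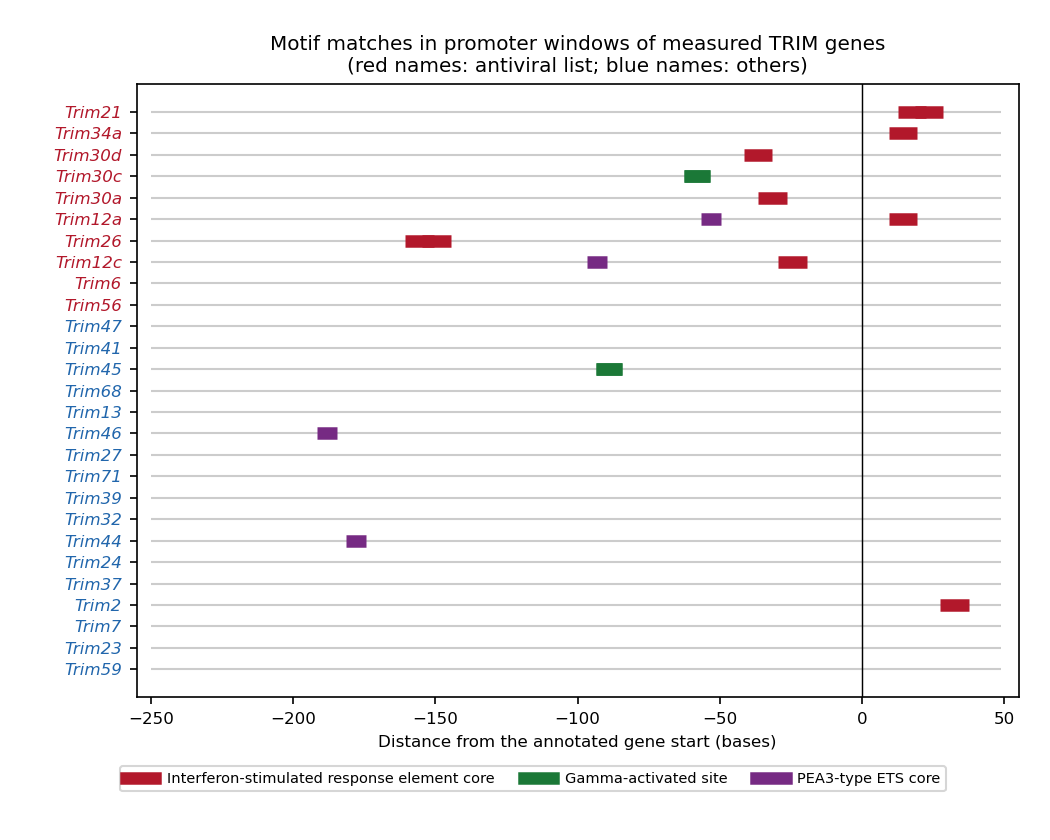
Position of motif matches relative to the annotated start of each measured TRIM gene with a RefSeq promoter window, in bases, with genes ordered by their difference within the antiviral list (red names) and the others (blue names). A single window is drawn per gene, whereas the counts in the text use all windows of a gene. The PEA3-type matches of Trim24 and Trim2 and the gamma-activated site of Trim46 lie in other windows and are not drawn. Red bars, the interferon-stimulated response element core, occur in 7 of the 10 antiviral genes and in 1 of the 17 others.

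In Trim21 a pair of overlapping matches runs from 13 to 28 bases after the start, as the single capital run above shows, and Trim34a and Trim12a each hold 1 match from 10 to 19 bases after it. The matches of Trim30a and Trim30d begin 36 and 41 bases before the start. Trim26 has overlapping matches that begin 160 and 154 bases before it. Aligned without gaps, the Trim30d window was identical to that of Trim30a at 276 of 295 bases and holds the same 10 bases. The Trim30c window was identical at 162 of 199 bases and differs in the element by T3C (Trim30a's base first, counted from 1 at the 5′ end of its capital run). Trim30c was called higher at the low levels given above. The Trim5 window, in turn, was identical to that of Trim12a at all 241 aligned bases, element included, while Trim5 was at most at 0.24 TPM and Trim12a reached 10.51 TPM.

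The element was also read in measured genes other than the TRIM members. Of 336 such genes whose windows held it, 8.04% were called higher and 7.44% lower, and of 9203 without it 1.89% and 6.39%. These are shares in 1 pair of libraries and a match does not show that a factor binds. The gamma-activated site, searched as TTCNNNGAA, was in 1 of the 10 antiviral genes (Trim30c) and 2 of the 17 others, and in 9.55% of all genes. The PEA3-type core of ETS factors such as Etv4, searched as AGGAAGT on both strands, was in 2 of the 10 (Trim12a and Trim12c), in 4 of the 17 (Trim46, Trim44, Trim24 and Trim2) and in 10.7% of all genes. No match to it was found in the windows of the called members that the table held (Trim21, Trim34a, Trim30d, Trim30c, Trim23 and Trim59). The first 2 motifs can overlap in the bases GAA.

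Genes that TRIM proteins work with were read from lists of their enzymes, partners and regulators. Of 7 factors of interferon signalling, 1 was called higher and none lower, beside 3.39% and 7.06% of all measured genes. The called gene was Stat2, which acts in the complex that binds the response element, at 19.3 and 48.1 TPM. Irf9, the DNA-binding subunit of that complex, was at 34.2 and 66.9 TPM, within 2-fold, and Jak1 had the lowest difference of this list, -0.75, at 45.9 and 26.9 TPM. Of 14 targets and partners of antiviral TRIM proteins, Irf7 was the only one called, at 20.4 and 124.9 TPM, beside the same shares of all measured genes. In both lists the count is a single gene. The 14 targets and partners had a median of -0.22. Their lowest difference was that of Tab3, one of the Trim30a targets, at 3.66 and 1.90 TPM. The 7 signalling factors had a median of 0.45, with 5 above 0 and 2 below. After adjustment for GC content these medians were 0.02 and 0.47. In each list 2 genes were then past 2-fold upward and 0 downward, beside 3.98% and 2.3% of all genes.

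The 10 ubiquitin enzymes that TRIM ligases use all lay below 0, with a median of -0.39, as did 7560 of the 12968 measured genes. Of the 10, 1 was called lower, beside 7.06% of all genes: Ube2v2, which helps Ube2n build the ubiquitin chains used in signalling, at 24.8 and 9.22 TPM. After adjustment for GC content Ube2v2 was at -0.53 and the list's median at 0.05, with 5 of 10 above 0. Uba1, the activating enzyme, had the highest level of the list at 426 and 416 TPM. TRIM proteins with other symbols or outside the rule were all within 2-fold. Trim25, which ubiquitinates the RNA sensor Ddx58, had the highest difference of these, 0.56, at 40.4 and 60.2 TPM. Pml, the scaffold of nuclear bodies, was at 40.8 and 50.8 TPM, and Trim28, the co-repressor of zinc finger proteins, at 390 and 372 TPM. The lowest difference was -0.60, for Mid2 at 1.5 and 0.65 TPM, and Mefv was listed at 0 in both.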

How the data were processed

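RNA sequencing of 2 libraries, 1 per group, was analysed, grouped by their treatment labels. The authors deposited TPM, 1 value per gene and library; the unit was read from the totals, 999999.77 with shRFP and 999870.3 with shETV4. HISAT2, RSEM and GRCm38.p4 are named without roles in the submitters' processing notes; the annotation, strand setting and filters were not given in the sources used here. Left out were the 153 unnamed of 55640 records (1.13% and 2.67% of TPM). Depth is unknown, so no interval or floor is given. Coordinates, GC content, exon overlap and shared 50-base words of transcripts (both strands) came from GENCODE M21 (GRCm38), promoters from RefSeq.

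Differences used a pseudocount of 1, a filter of 1 TPM in at least 1 library and a 2-fold call; GC adjustment subtracted the median over 50 bins. All measured members are named, and from the other lists the called, highest and lowest genes. Other genes named (Irf9, Uba1 as the most abundant, Pml, Trim28, Mefv, Nans, Gm47248 and the markers) were chosen after their values were seen. The members and lists were chosen with earlier results of these data known. Alternatives are given in the closing section. A gene of the interferon signalling list is not reported here. The procedure was tested on simulated data. Scripts ran in Python 3.11.15 with pandas 2.3.3, numpy 2.4.6 and scipy 1.17.1; figures were drawn with matplotlib 3.10.9.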

Additional observations from a re-analysis of the deposited data

How the results depend on the processing

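With 1 library per group no replicate could be left out. No paired analysis was possible because each group holds 1 library. The antiviral median stayed above that of the other TRIM genes under every alternative listed here, from 0.57 (pseudocount 5) to 1.39 (GC adjustment) apart, and 0.58 apart without a filter. Counts depended more on the settings. With pseudocount 5, 1 member was called higher (Trim21) and 1 lower (Trim59), beside 1.29% and 2.06% of all genes, the antiviral median was 0.47 and the PRY-SPRY median 0.20. With pseudocount 0.1, 5 of 35 were called lower, beside 11.3% of all genes. At 5 TPM or more, 3 of 25 were called higher, beside 2.5%. With 1 TPM in the mean of both libraries, chosen after seeing the data, 4 were called higher and 3 lower, and the median over all measured members went from 0.020 to -0.031, changing sign, because Trim30c and Trim6 were no longer counted. A 1.5-fold call gave 6 lower, and a 3-fold call 1 higher and 0 lower. GC adjustment gave 8 higher and 0 lower, an antiviral median of 1.20, and medians of -0.25 for the PHD and bromodomain class and -0.16 for the transmembrane class. A narrow antiviral list (Trim21 and the chromosome 7 cluster) left 1 higher gene outside it, Trim14, and a wide list of 25 had a median of 0.42. Promoter windows cut at the start held the response element in 4 antiviral and 0 other genes. Of 76 values of called genes under these settings, 17 no longer passed the call and 0 changed sign. This tally is no measure of robustness. Values under a changed filter or the 1.5-fold call repeat the main value and could not lose the call, and those under a 3-fold call could not change sign. Genes that a filter dropped are not among the 76: Trim30d, Trim30c and Trim23 at 5 TPM, and Trim30c with the mean of both libraries. A median was taken as moved when it changed by more than 1.5 times and more than 0.1. The trimmed mean of log2 ratios lay at -0.12 and the median at -0.07. Low TPM, without a known depth, limits Trim30c, Trim6 and Trim7, which reached 1 TPM in 1 library alone, among others.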

Other observations

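Genes that share a start region with TRIM genes were read for the measured members. A named gene on the opposite strand began within 1 kb of 8 of them, and 2 of these neighbours were measured. Trappc13, which encodes a subunit of a vesicle tethering complex, begins 328 bases from Trim23 and had 30.5 TPM in the shRFP library and 16.9 TPM in the shETV4 library, a difference of -0.82 beside -1.10 for Trim23, and of -0.01 after adjustment for GC content. Krtcap2, a subunit of the oligosaccharyltransferase, begins 343 bases from Trim46 and was at 142 and 124 TPM, a difference of -0.19 beside -0.13 for Trim46.

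Among the other TRIM genes, the 12 with the lower GC content held all 3 genes called lower, at a median difference of -0.44, and the 12 with the higher GC content held none, at a median of 0.05. With the GC trend of all genes subtracted the medians were -0.23 and -0.06.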
